A study of Bos taurus with 8 samples.

Results

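The glycine cleavage system and the lipoyl-bearing proteins related to it were examined in bovine blastocysts through a list of 10 genes: GCSH, GLDC, AMT, DLD, LIAS, LIPT1, DLAT, DLST, DBT and PDHX. Probes were taken by gene symbol in the platform annotation, which gave 12 probes for 9 of the 10 genes, out of 43794 gene probes on the array. After a filter on dim probes, 13678 named genes were measured, these 9 among them. DLST was not analysed here, because no probe carried its symbol. GCSH was chosen for its values in these same data, since its 3 probes agreed in being higher after treatment, so its ratios are described without a test. The others were listed as its functional partners, but with earlier results of these data known, so their tests are not fully independent of these data.

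Embryos matured, fertilized and cultured in vitro from slaughterhouse ovaries were grown in synthetic oviductal fluid with or without buthionine sulfoximine (BSO), which inhibits the first enzyme of glutathione synthesis. BSO was at 0.4 mM from day 3 to day 5 and at 0.01 mM from day 5 to day 7, and control embryos had the same medium without it. At 196 h after fertilization, whole blastocysts were gathered into 4 pools of 10 for each treatment, and their amplified RNA was hybridized to 8 dual-colour arrays, 4 with BSO in Cy5 and 4 with BSO in Cy3. Arrays of opposite dye orientation were averaged to 4 replicates, each of which is taken to compare 1 BSO pool with 1 control pool. The labels do not state which arrays held the same pools, and arrays were matched by their order within slides. Values below are ratios of BSO over control on the log2 scale, except where a level is named. No label states that the pools were separate cultures or animals. The p-values therefore reflect only how these pools differ, and that spread may be technical.

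The glycine cleavage system is a mitochondrial complex that splits glycine into carbon dioxide, ammonia and a one-carbon unit carried by tetrahydrofolate. The P protein (GLDC) decarboxylates glycine, the H protein (GCSH) carries the product on a lipoyl arm, the T protein (AMT) hands the one-carbon unit to folate, and the L protein (DLD) reoxidizes the arm. The same lipoyl chemistry serves the 2-oxoacid dehydrogenases. In the current view of mammalian lipoylation, GCSH is also the protein on which LIAS builds the lipoyl group before LIPT1 passes it to the dehydrogenases.

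All 12 probes passed the filter on dim probes, which kept 36995 probes, and 10 passed a stricter one at 2 times the limit. The probe of LIPT1 and the dimmer probe of PDHX failed the stricter filter. No member probe was near the end of the intensity scale, the highest reaching 67.6% of its array's maximum. Markers of all 3 blastocyst lineages were measured above the filter, except GATA6. For trophectoderm, 5 of 5 markers passed, among them KRT8 and TFAP2C. The summed level of these 5 was 61436 to 75265 intensity units in BSO pools and 75369 to 82982 in control pools. These ranges nearly met, and no background share was computed for such sums, so little is read from their separation. A sum of intensities weights the bright probes, and the markers did not move together: KRT18 was at -0.64, KRT8 at -0.28, GATA3 at -0.05, CDX2 at 0.01 and TFAP2C at 0.10, with limma adjusted p from 0.172 to 0.949. For 3 epiblast markers the sums overlapped, at 3611 to 6546 and 2752 to 7588, as did those of the 2 measured hypoblast markers, at 3054 to 4963 and 2302 to 4705. All 5 cumulus cell markers passed the filter, but only CYP19A1 passed the stricter one, and their sums overlapped, at 857 to 1041 and 897 to 1021. In whole blastocysts, fewer cells of a type and less RNA per cell cannot be told apart, and the part of the lower summed level of these 5 markers in the ratios below was not tested.

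GCSH, the lipoyl-carrying H protein, had the highest ratio of the 9 genes, and all 3 probes were higher in each of 4 replicates. Probe EMBV3_15661 was at 1.20, 0.69, 0.94 and 1.24 in replicates 1 to 4. Probe EMBV3_23352 was at 1.06, 0.87, 0.35 and 1.20, and probe EMBV3_24845 at 1.25, 0.80, 0.88 and 1.26. Replicates 1 and 4 were the high ones on every probe, and the low value of 0.35 belonged to 1 probe in replicate 3, where the others were at 0.94 and 0.88. On EMBV3_15661, however, the arrays of a replicate differed by up to 0.93, against a range of 0.55 between replicates. Averaged over its probes, GCSH was at 0.98 ± 0.26 (SD, n = 4), or 1.97-fold higher. On single arrays all 24 values of the 3 probes were above 0, from 0.25 to 1.70. Of all kept probes, 4.72% were higher on all 8 arrays, and the 3 GCSH probes ranked 8th, 10th and 25th by ratio. GCSH was chosen by these ratios, so nothing further is read from the ranks.

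Levels in the separate pools were compared next for GCSH. On probe EMBV3_24845 the normalized log2 intensity was 11.93, 12.17, 11.54 and 12.18 in the BSO pools and 10.68, 11.37, 10.66 and 10.92 in the control pools of replicates 1 to 4, so every BSO pool lay above every control pool. Of all kept probes, 2.41% had BSO pools entirely above control pools. On probe EMBV3_15661 the BSO pools were at 13.16, 13.60, 12.87 and 13.53 and the control pools at 11.96, 12.91, 11.93 and 12.29. These overlapped through a single pair of values, the control pool of replicate 2 and the BSO pool of replicate 3. On probe EMBV3_23352 the BSO pools were at 13.86, 14.62, 12.76 and 13.65, and the control pools at 12.80, 13.75, 12.41 and 12.45. Replicate 2 had the highest level of its treatment on this probe in both BSO and control, and replicate 3 the lowest in both. The BSO and control levels of a replicate were read from the same spots on the same arrays. Such shared movement may therefore be technical, and it is not read as a trait of the pools.

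**Figure D1:**
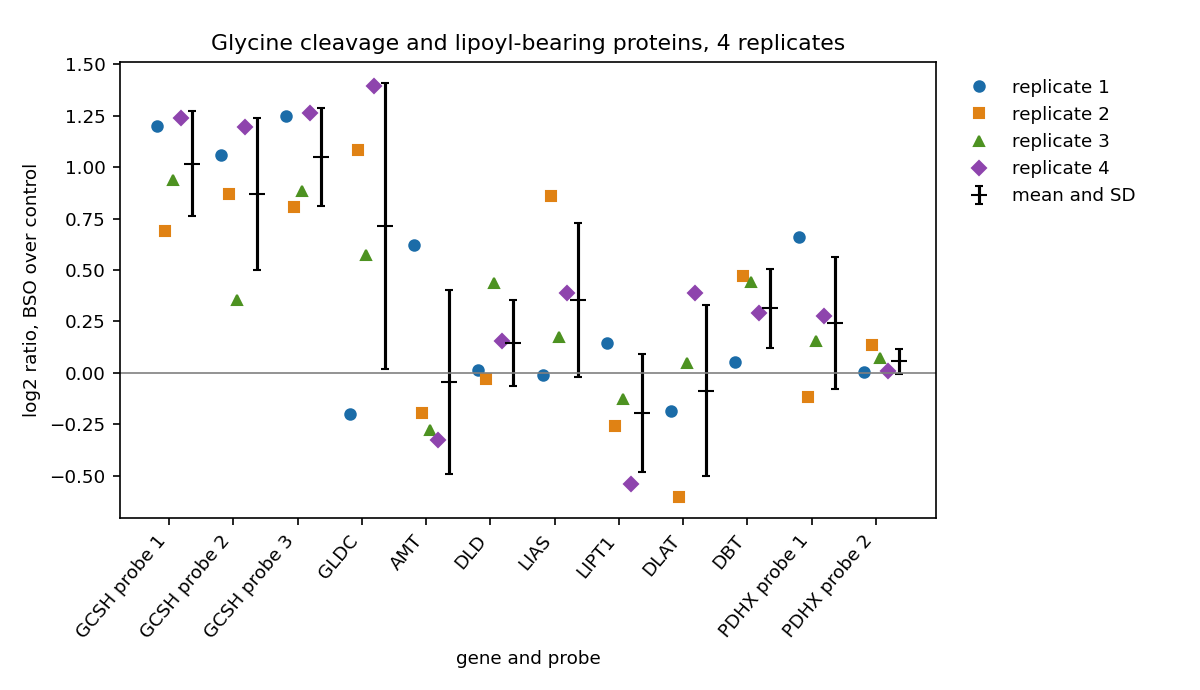
Log2 ratio of BSO over control (vertical axis) for the 12 probes of 9 genes (horizontal axis), with 1 symbol per replicate and the mean with SD (n = 4) in black. The 3 GCSH probes lie above 0 in every replicate, from 0.35 to 1.26, while GLDC spreads from -0.20 to 1.40.

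GLDC, the P protein that binds GCSH and starts the reaction, had the next highest ratio and the widest spread of the 12 probes. It was at -0.20, 1.08, 0.57 and 1.40 in replicates 1 to 4, with a mean of 0.71 ± 0.28 (limma SE, n = 4) and a limma adjusted p of 0.227. It was thus above 0 in 3 of 4 replicates and slightly below 0 in replicate 1. Its SD of 0.70 over the replicates exceeded that of all but a small share of kept probes, lying at percentile 98.7. The 2 arrays of a replicate differed by 0.28 or less on this probe, against a range of 1.59 between replicates. The log2 levels of GLDC were 10.28, 12.69, 10.51 and 11.62 in BSO pools and 10.48, 11.61, 9.94 and 10.22 in control pools. Both pools of replicate 2 were the highest of their treatment, and the 2 treatments overlapped.

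AMT, the T protein that transfers the one-carbon unit to tetrahydrofolate, had ratios of both signs. It was at 0.62, -0.19, -0.28 and -0.33, with a mean of -0.04 ± 0.18 (limma SE, n = 4) and a limma adjusted p of 0.900. Replicate 1 alone was higher, and both of its arrays showed this, at 0.61 and 0.63. In levels, the control pool of replicate 1 stood apart at 7.47, against 8.51, 8.49 and 8.79 in the other control pools, while the BSO pools lay at 8.09, 8.32, 8.21 and 8.47. Without replicate 1 the mean was -0.27, and without replicate 2, 3 or 4 it was 0.0053, 0.034 or 0.049. Replicate 1 was also the one in which GLDC was below 0.

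DLD, the dihydrolipoyl dehydrogenase shared by the glycine cleavage system and the 2-oxoacid dehydrogenases, was near 0. Its replicates were at 0.01, -0.03, 0.44 and 0.15, with a mean of 0.14 ± 0.09 (limma SE, n = 4), a 95% interval of -0.09 to 0.38 and a limma adjusted p of 0.395. Without replicate 3 the mean was 0.046. Replicates 1 and 2, on Slide114 and Slide115, averaged -0.01, and replicates 3 and 4, on Slide25, averaged 0.30. This difference of 0.30 ± 0.13 had a limma adjusted p of 0.733. DLD levels were 12.15, 11.59, 12.34 and 12.37 in BSO pools and 12.13, 11.62, 11.90 and 12.22 in control pools, which overlapped.

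**Figure D2:**
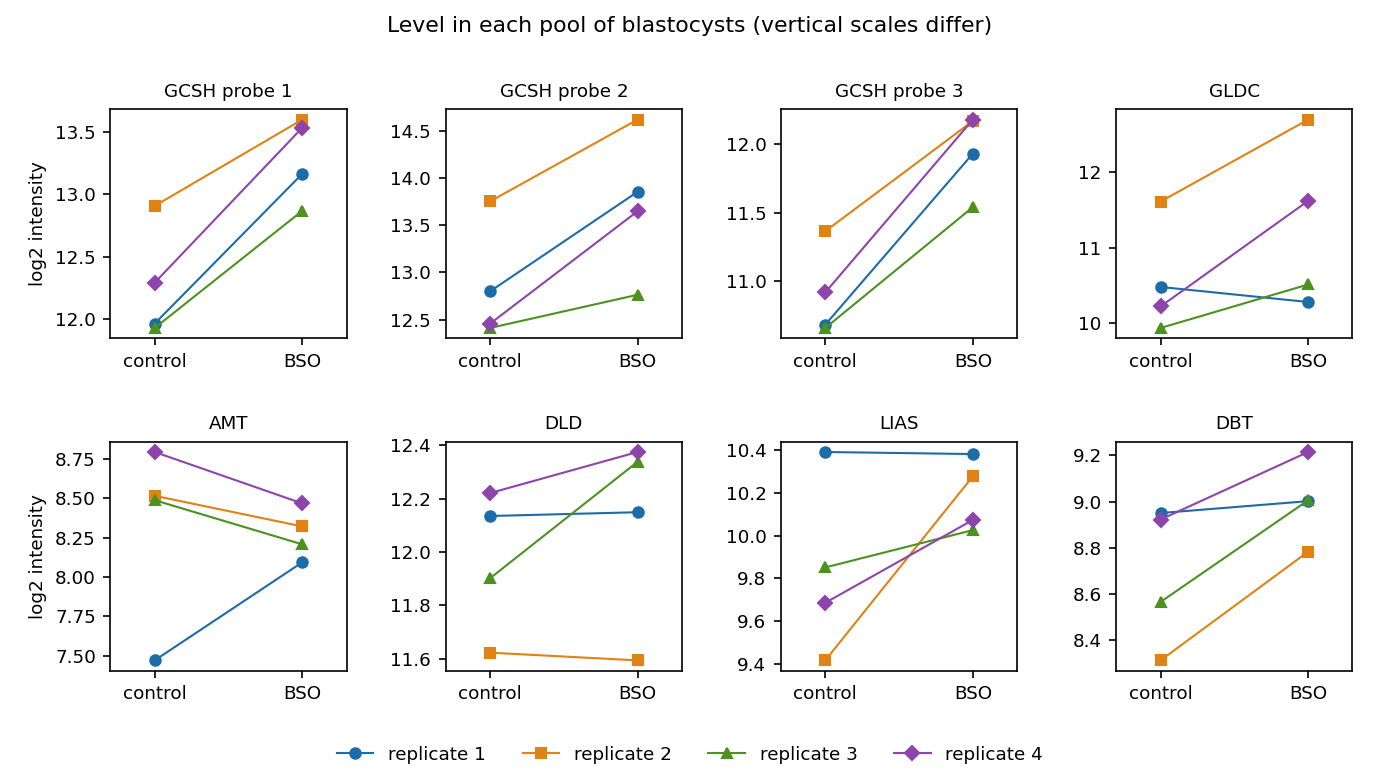
Normalized log2 intensity (vertical axis, with a scale of its own in each panel) in the control and BSO pool of each replicate for the glycine cleavage genes, LIAS and DBT. Lines join the control and BSO pool of a replicate: all 4 lines slope upward on the GCSH probes and on DBT, and the line of replicate 1 runs against the other 3 for GLDC and AMT.

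Of the genes that make and attach the lipoyl group, LIAS and LIPT1 had ratios of opposite sign. LIAS, the iron-sulfur enzyme that inserts sulfur into the octanoyl chain, was at -0.01, 0.86, 0.17 and 0.39, with a mean of 0.35 ± 0.15 (limma SE, n = 4) and a limma adjusted p of 0.259. Replicate 2 was the highest, and without it the mean was 0.18. In control pools the LIAS level ran from 9.42 in replicate 2 to 10.39 in replicate 1, whereas the BSO pools lay within 10.03 to 10.38. LIPT1, the transferase that moves the lipoyl group to the dehydrogenases, was at 0.15, -0.26, -0.13 and -0.54, with a mean of -0.19 ± 0.12 and a limma adjusted p of 0.386. The mean was -0.08 without replicate 4 and -0.31 without replicate 1. Its control pools were close together, at 7.74 to 7.87, and its BSO pools ran from 7.24 to 8.02. LIPT1 was among the dimmest of the 12 probes.

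The lipoyl-bearing subunits of the dehydrogenases were measured by DLAT and PDHX, of the pyruvate dehydrogenase complex, and DBT, of the branched-chain complex. DBT was at 0.05, 0.47, 0.44 and 0.29, above 0 in each of the 4 replicates, with a mean of 0.31 ± 0.08 (limma SE, n = 4), or 1.24-fold, and a limma adjusted p of 0.130. It was the only partner probe with an unadjusted p under 0.05 in the limma fit over all kept probes. With the 8 arrays fitted and the matched pair as replicate block, the limma adjusted p of DBT was 0.0443. That value rests partly on repeated hybridizations, and 10.7% of all kept probes passed an adjusted p of 0.05 in the same fit. DBT levels were 9.002, 8.783, 9.005 and 9.214 in BSO pools and 8.950, 8.313, 8.566 and 8.922 in control pools, so the treatments overlapped although each replicate had a higher BSO pool.

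DLAT, the acetyltransferase that forms the core of the pyruvate dehydrogenase complex, was at -0.18, -0.60, 0.05 and 0.39. Its mean was -0.09 ± 0.17 (limma SE, n = 4) with a limma adjusted p of 0.781. Leaving out replicates 1 to 4 in turn gave -0.06, 0.085, -0.13 and -0.25. The sign differed between slides: replicates 1 and 2 averaged -0.39 and replicates 3 and 4 averaged 0.22. That difference of 0.61 ± 0.21 was the largest of the partner probes, with an unadjusted p under 0.05 but an adjusted p of 0.721 (limma), and 6.87% of all kept probes were at an unadjusted p under 0.05 for it. PDHX, which anchors DLD to the complex, had 2 probes. EMBV3_13612, the brighter, was at 0.66, -0.12, 0.15 and 0.27, with a mean of 0.24 ± 0.13 (limma SE, n = 4) and an adjusted p of 0.343 (limma), and without replicate 1 the mean was 0.10. EMBV3_23527, the dimmer, was at 0.01, 0.13, 0.07 and 0.01, with a mean of 0.06 ± 0.04, or 0.03 without replicate 2, so both means were above 0 and neither passed.

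Across the 8 partner genes, ratios were of both signs, from -0.19 for LIPT1 to 0.71 for GLDC. Of 9 partner probes, 6 had a mean above 0 and 3 below, 2 were higher in all 4 replicates and 0 lower, against 17.4% and 17.1% of all kept probes. At an unadjusted p under 0.05 (limma) 1 was higher and 0 lower, against 8.67% and 13.8% of all kept probes. At an adjusted p under 0.05 there were 0 with limma, against 0% of all kept probes. In the fit with the replicate block 1 passed, which was DBT, against 10.7%. The median over the 8 partner genes, with the brightest probe for each, was 0.19, against 0.0044 over all 13678 named genes, and 5 of the 8 were above 0, against 51.4%. In the higher direction, 1 or 2 of 9 partner probes is close to these background shares.

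Some of these ratios differed between dye orientations. In replicates 1 and 2, all arrays with BSO in Cy3 were on Slide114 and all with BSO in Cy5 on Slide115. There, dye and slide cannot be told apart. On arrays with BSO in Cy5, GCSH probe EMBV3_15661 averaged 1.32, and on arrays with BSO in Cy3 it averaged 0.71. The other GCSH probes averaged 0.76 and 0.98 (EMBV3_23352) and 1.18 and 0.92 (EMBV3_24845), so the 3 probes did not lean the same way. The brighter PDHX probe averaged 0.47 with BSO in Cy5 and 0.02 with BSO in Cy3, and DLD 0.26 and 0.03. EMBV3_15661, this PDHX probe and DLD, 3 of the 12 probes, had a dye effect at a limma adjusted p under 0.05, against 42.5% of all kept probes. GLDC, at 0.71 and 0.72, and DLAT, at -0.09 and -0.08, hardly differed between orientations. A dye effect cancels in the replicate means.

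**Figure D3:**
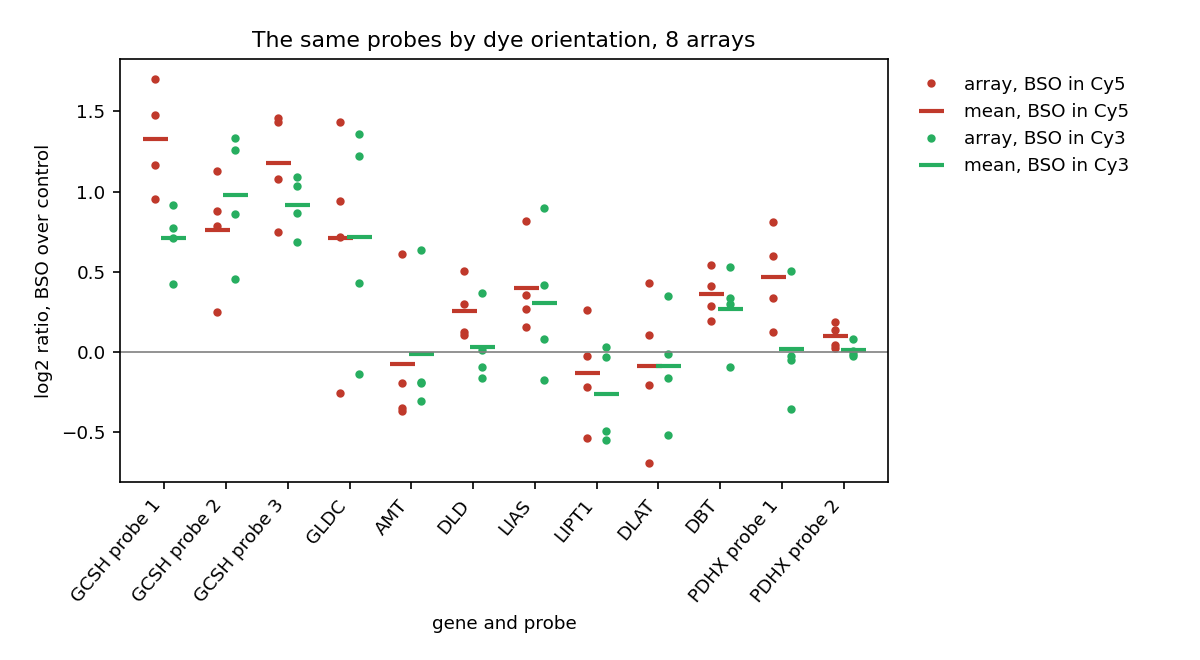
Log2 ratio of BSO over control (vertical axis) on each of the 8 arrays for the 12 probes (horizontal axis), with arrays that had BSO in Cy5 in red, arrays that had it in Cy3 in green, and bars for the means of 4 arrays. GCSH probe 1 (EMBV3_15661) averages 1.32 in red and 0.71 in green, and all GCSH values lie above 0.

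The other genes around the lipoyl group were taken from 4 lists with 49 genes, of which 47 were measured. The lists, too, were written with earlier results of these data known. Ratios of both signs were found, with a median of -0.01, and 21 genes above 0 and 26 below. At an unadjusted p under 0.05 (limma), 7 were higher and 8 lower. Among all named genes the shares were 10.4% and 14.8%. At an adjusted p under 0.05, 0 passed with limma. In the fit with the replicate block 9 of 47 passed, against 13.1% of all named genes.

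Among 15 measured genes for making the lipoyl group, 4 were higher and 3 lower at an unadjusted p under 0.05 (limma). These counts stand against 10.4% and 14.8% of all named genes, and the median of the list was -0.03. FDX1, a mitochondrial ferredoxin that donates electrons and is reported to serve LIAS in human cells, was at 0.65, 0.76, 0.95 and 1.11, a mean of 0.87 ± 0.09 (limma SE, n = 4) with a limma adjusted p of 0.0567. It was highest in replicate 4, as was the GCSH mean. It was lowest in replicate 1, where the GCSH mean was at 1.17. In replicate 3 FDX1 was at 0.95, where the GCSH mean was lowest, at 0.72. ISCA1 and ISCA2, which work together in assembling the iron-sulfur clusters that enzymes such as LIAS need, went in opposite directions. ISCA1 was at 0.38 ± 0.04 with an adjusted p of 0.0573, and its other kept probe was at 0.21. ISCA2 was at -0.43 ± 0.08 with an adjusted p of 0.0912. SLC25A26, the carrier that brings S-adenosylmethionine, a cosubstrate of LIAS, into mitochondria, was at -0.31 ± 0.07 where its signal was brightest, with its remaining 6 probes between -0.19 and 0.04.

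Of 16 genes of glycine and serine metabolism, 12 were below 0 and 4 above, with a median of -0.14. Some of these 12 were close to 0. Among all named genes, 51.4% were above 0. At an unadjusted p under 0.05 (limma), 2 of the 16 were higher and 4 lower, against 10.4% and 14.8% of all named genes. SHMT2, the mitochondrial enzyme that makes glycine from serine and yields the same one-carbon product as the glycine cleavage system, was at -0.59, -0.71, -0.47 and -0.62. Its mean was -0.60 ± 0.05 (limma SE, n = 4), with a limma adjusted p of 0.0514. That was the lowest adjusted value on the array, shared by 76 of 36995 probes, and 68 probes had a smaller unadjusted p. Its 3 other probes, all dim, were at -0.02 to -0.10. MTHFD1L, which releases formate from mitochondria at the end of that one-carbon route, was at 0.48 ± 0.07 with an adjusted p of 0.0699, and 0.38 on its other probe. SHMT2 was thus below 0 and MTHFD1L above 0 in every replicate. With the matched pair as replicate block, the limma adjusted p of FDX1, ISCA1, ISCA2, SLC25A26, SHMT2 and MTHFD1L was 0.00248 to 0.0222. These values rest partly on repeated hybridizations, as for DBT. The other 3 of the 9 genes that passed with the block were SHMT1, CBR4 and BCKDHA, named after their values were seen. SHMT1, the cytosolic counterpart of SHMT2, had the lowest ratio of the 47 genes and a wide spread, at -1.78, -0.91, -0.58 and -0.29, with a mean of -0.89 ± 0.26 (limma SE, n = 4). Its limma adjusted p was 0.149, or 0.0229 with the block. CBR4, which takes part in mitochondrial fatty acid synthesis, was at 0.25 ± 0.08, with a limma adjusted p of 0.168, or 0.0404 with the block. This was the brightest of its 3 kept probes, and the others are not given here.

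For the remaining lists the background was the same, with 10.4% of all named genes higher and 14.8% lower at that p. Of 8 catalytic partners of the lipoyl enzymes, such as the E1 subunits of the dehydrogenases, 0 were higher and 1 lower at an unadjusted p under 0.05 (limma), and the median was 0.07. The gene was BCKDHA, an E1 subunit of the branched-chain complex to which DBT belongs, at -0.29 ± 0.07 (limma SE, n = 4) with an adjusted p of 0.118, or 0.0245 with the replicate block. Of 8 measured kinases and phosphatases of the complexes, 1 was higher and 0 lower, and the median was 0.09.

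**Figure D4:**
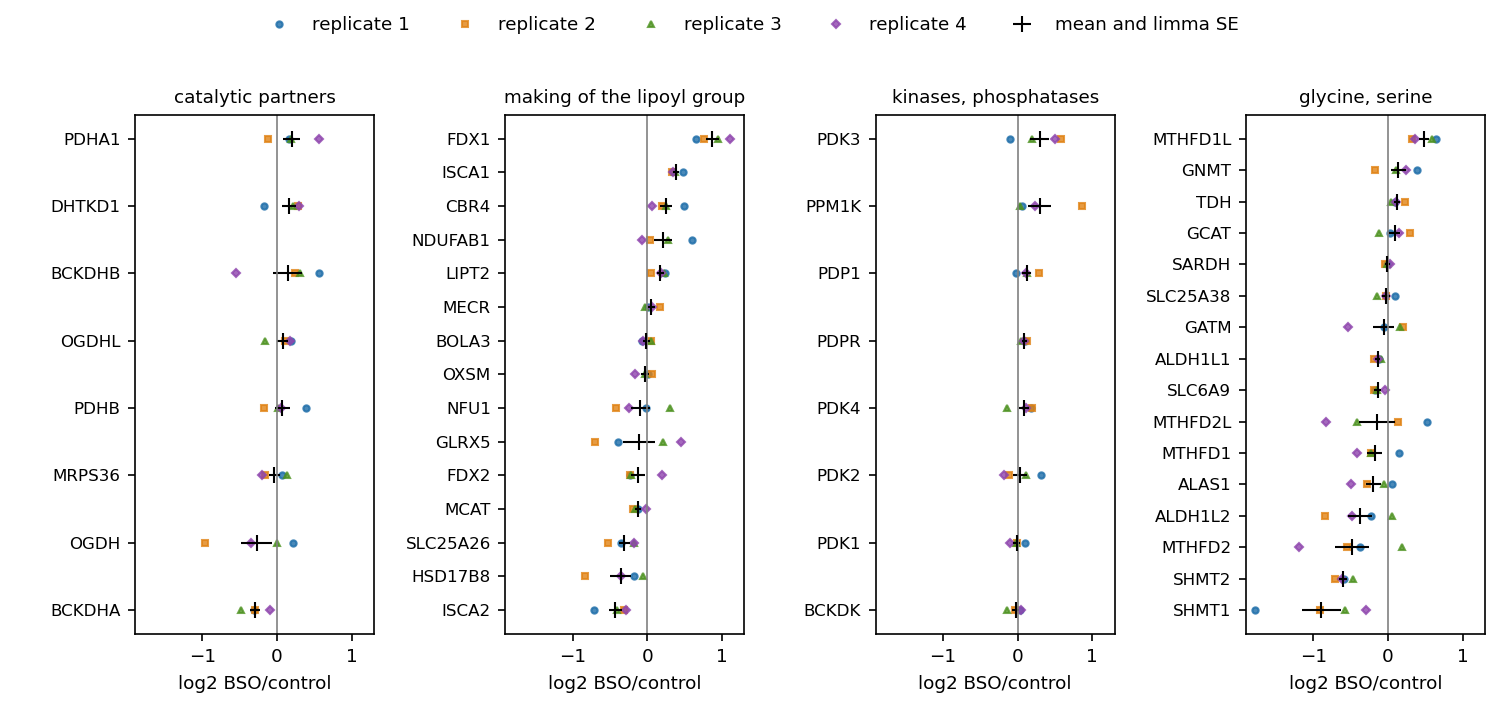
Log2 ratio of BSO over control (horizontal axis) for 47 genes in 4 lists, each gene at its brightest probe, with 1 symbol per replicate and the mean with its limma SE in black (n = 4). FDX1 at 0.87 and SHMT2 at -0.60 have all 4 replicates on one side of 0.

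By the root mean square difference of log2 ratios over the 8 arrays, the gene nearest to the GCSH mean among 12711 named genes was FDX1, at 0.32. The next were GPATCH11 at 0.35, ZNF638 at 0.36, DYNLT2B at 0.37 and PPM1A at 0.38. The 3 GCSH probes themselves lay 0.14, 0.24 and 0.31 from their mean. Each of them is part of that mean, which shortens its distance, so these values are not comparable with those of other genes. Of its partners, GLDC was nearest at 0.72, followed by DBT and the brighter PDHX probe, both at 0.77, and LIPT1 was farthest at 1.24. The points share arrays, pools and normalization, so these distances are a description. The 5 nearest genes were all below the GCSH mean on average, with mean ratios of 0.65 (ZNF638) to 0.87 (FDX1).

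**Figure D5:**
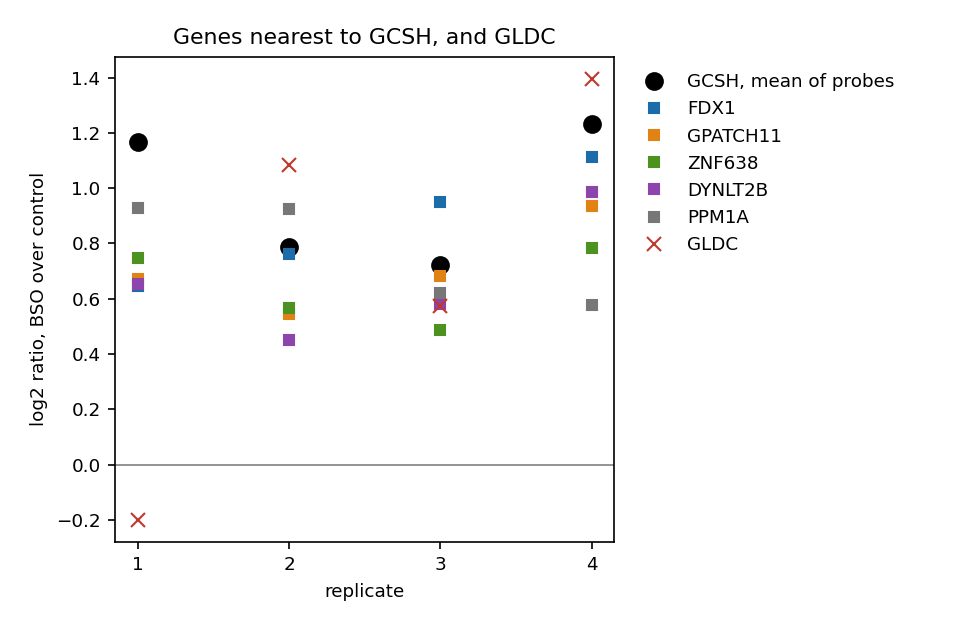
Log2 ratio of BSO over control (vertical axis) in replicates 1 to 4 (horizontal axis) for the mean of the GCSH probes (black), the 5 genes nearest to it (squares) and GLDC (crosses). The squares lie between 0.45 and 1.11, while GLDC lies at -0.20 in replicate 1 and at 1.40 in replicate 4.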

How the data were processed

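Per the file headers, the scanner files deposited for the arrays give raw mean spot and local background intensity at 532 nm (Cy3) and 635 nm (Cy5). The authors' deposited table of log2 values correlated with BSO over control from the scanner at 0.889 to 0.989, so it runs in that direction, with array medians of 0.0011 to 0.013. The submitters' processing notes name limma, and its settings are not given in the sources used here.

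Intensities were corrected with normexp (offset 50) and normalized by loess in limma 3.58.1 (R 4.3.3). Probes above the 95th percentile of 153 negative control spots on at least 4 of 8 arrays in either treatment were kept. Arrays at the same order within slides were averaged. The labels do not state this pairing. Deviations of matched arrays correlated at 0.657 to 0.843 and those of others at -0.049 at most, which is partly built in, because deviations within an orientation sum to 0. Replicate means were tested against 0 (lmFit, eBayes), and p-values were adjusted by Benjamini-Hochberg across all kept probes. The fit was checked on data simulated with independent normal noise, which held no dye, slide or pairing effects and so does not cover them. Levels per pool were scaled between arrays by Aquantile. The number of arrays limits precision.

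Symbols came from the platform annotation, updated for related genes through RefSeq names (ARS-UCD2.0). The files name no genome build, so coordinates are left out. The members and lists were chosen with earlier results of these data known. Related genes were named if among the up to 4 per list with the largest ratio past the adjusted threshold of 0.05 or, failing that, at an unadjusted p under 0.01 with the same sign in all 4 replicates, beside the 5 genes nearest to GCSH. BCKDHA, SHMT1 and CBR4 fall outside this rule and were named after their values were seen. Alternatives changed the background correction, normalization, source of ratios, filter, dye, slide, weights, replicates and block.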

Additional observations from a re-analysis of the deposited data

Results flagged for a closer look

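AMT had 1 replicate far from the others: replicate 1, at 0.62, was separated from the remaining 3, at -0.33 to -0.19, by a gap of 0.861 of the whole range. On arrays with BSO in Cy3 alone, the same replicate gave a gap of 0.879 of the range. Both exceeded Dixon's critical value for 4 values. Of 36 groups of 4 values checked, 2 were found, and chance alone would mark about 1 in 20.

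The ratio differed between dye orientations for 3 probes by the dye term of the 8-array limma fit. In replicates 1 and 2 this term cannot be told apart from a difference between Slide114 and Slide115. BSO in Cy5 gave a higher value than BSO in Cy3 by 0.62 for GCSH probe EMBV3_15661 (adjusted p = 0.00232), by 0.45 for PDHX probe EMBV3_13612 (adjusted p = 0.0146) and by 0.23 for DLD (adjusted p = 0.0474).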

How the results depend on the processing

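The mean GCSH ratio stayed between 0.87 and 1.09 under 16 alternatives, moving by less than its SD, and between 0.89 and 1.06 when 1 replicate was left out. Of these alternatives, the filters, the replicate block and the slide term cannot change this mean. The limits of 0.87 and 1.09 came from BSO in Cy3 alone and in Cy5 alone, between which probe EMBV3_15661 ran from 0.71 to 1.32. With the deposited log2 values the 3 GCSH probes were at 1.03, 0.88 and 1.06.

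With the 8 arrays and the matched pair as replicate block, 3948 probes passed an adjusted p of 0.05, 1 of them a partner (DBT) and 9 related genes, against 0, 0 and 0 with averaged replicates. No other call on a member changed under the block. With BSO in Cy5 alone 7668 probes, 1 partner (DBT, limma adjusted p 0.0301) and 14 related genes passed. With BSO in Cy3 alone these counts were 0, 0 and 0, and the limma adjusted p of DBT was 0.191. A fit of 1 orientation does not separate a dye effect from the treatment. Over 16 alternatives the adjusted p of DBT ran from 0.0301 to 0.510. Without background correction 468 probes and 3 related genes passed, with array weights 356 and 3, with the stricter filter 274 and 2, with the deposited values 220 and 2, and with no filter 91 and 1. Leaving out replicates gave 0 in each count. Higher probes made up 49.0% of those at an unadjusted p under 0.05 after median centring and 38.6% after loess.

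Among members that did not pass, signs turned for AMT (0.21 on Slide114 and Slide115 alone, and -0.27 to 0.049 without 1 replicate), DLD (-0.0074 on Slide114 and Slide115 alone) and DLAT (0.22 on Slide25 alone, -0.25 to 0.085 without 1 replicate). The cause was not tested. LIPT1 and the dimmer PDHX probe were too dim for the stricter filter.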
